A study of Mus musculus with 12 samples.

Results

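The CXC chemokine genes of mouse embryonic fibroblasts (MEFs) are described here in cells that differ in the glucocorticoid receptor and in exposure to a glucocorticoid. The members were Cxcl1, Cxcl2, Cxcl5, Ppbp (listed as Cxcl7), Cxcl9, Cxcl10, Cxcl12, Cxcl14 and Cxcl16, and every non-control probe carrying one of these gene names was taken. That gave 11 probes of 9 genes, out of 41174 non-control probes. Cxcl12 and Cxcl16 had a pair of probes each. Of the 11 probes, 9 passed the filter on dim probes and were tested together with the rest of the 30934 probes that passed. The probes of Cxcl2 and Cxcl9 were well above background on 0 of 12 arrays and were not tested.

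The 4 groups held 3 one-colour arrays each. They were homozygous GR-C3 knockin cells given 100 nM dexamethasone (Dex, a synthetic glucocorticoid), GR-C3 cells given vehicle, wild-type (WT) cells given Dex, and WT cells given vehicle, each for 6 hours. All cells came from E12.5 embryos of mice kept on a C57Bl/6 background. In the knockin, exon 2 of the receptor gene Nr3c1 keeps the start codon of the short GR-C3 isoform, while the start codons of the other translational isoforms are mutated in every cell of the animal. The knockin mice descend from a single embryonic stem cell clone, so a change particular to that clone cannot be told apart from the edit. Replicates are named biological in the labels, and whether each had its own embryo or culture is not stated, so p-values cover only the spread between the samples at hand.

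Chemokines are small secreted proteins that draw leukocytes along a gradient by binding G-protein-coupled receptors. Members of the CXC family with a Glu-Leu-Arg motif, such as Cxcl1, Cxcl2, Cxcl5 and the product of Ppbp, attract neutrophils through Cxcr2, whereas Cxcl9 and Cxcl10 are interferon-induced ligands of Cxcr3 on activated T cells. Cxcl12 acts through Cxcr4 in the homing of stem cells, Cxcl14 is made at rest in many epithelia and connective tissues, and Cxcl16 is a membrane-anchored ligand of Cxcr6. Fibroblasts secrete several of these proteins when NF-kappaB or interferon signalling is active, and glucocorticoids are widely used to lower that output.

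The 250 bases upstream of the transcription start are shown for Cxcl1, Ppbp, Cxcl10 and Cxcl2. Cxcl1 and Ppbp stand for the group with the largest genotype differences, Cxcl10 for the interferon-induced group, and Cxcl2 is the neighbour of Cxcl1 that was not detected. The sequences are RefSeq's, build GRCm38.p6, written 5′ to 3′ on the strand of the gene, and 7 of the 9 genes had an entry. Capitals mark matches on either strand to the NF-kappaB consensus, which 7.25% of 32851 mouse promoter windows of this length hold. The positions are chr5:90890995-90891244 (plus strand) for Cxcl1, chr5:90768268-90768517 (plus strand) for Ppbp, chr5:92348890-92349139 (minus strand) for Cxcl10 and chr5:90903649-90903898 (plus strand) for Cxcl2.
Cxcl1: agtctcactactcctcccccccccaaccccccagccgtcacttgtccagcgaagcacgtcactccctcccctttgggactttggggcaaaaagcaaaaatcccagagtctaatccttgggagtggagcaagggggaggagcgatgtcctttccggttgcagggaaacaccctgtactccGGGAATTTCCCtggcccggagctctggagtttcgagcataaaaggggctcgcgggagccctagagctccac
Ppbp: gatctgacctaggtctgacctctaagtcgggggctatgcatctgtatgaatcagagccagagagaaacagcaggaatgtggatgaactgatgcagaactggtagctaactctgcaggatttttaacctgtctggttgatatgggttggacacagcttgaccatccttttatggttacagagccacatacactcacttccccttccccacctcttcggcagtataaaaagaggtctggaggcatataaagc
Cxcl10: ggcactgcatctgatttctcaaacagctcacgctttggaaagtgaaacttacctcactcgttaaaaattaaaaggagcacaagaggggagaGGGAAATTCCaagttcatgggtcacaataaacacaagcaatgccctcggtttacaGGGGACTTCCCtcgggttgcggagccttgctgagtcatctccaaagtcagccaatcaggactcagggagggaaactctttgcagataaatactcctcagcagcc
Cxcl2: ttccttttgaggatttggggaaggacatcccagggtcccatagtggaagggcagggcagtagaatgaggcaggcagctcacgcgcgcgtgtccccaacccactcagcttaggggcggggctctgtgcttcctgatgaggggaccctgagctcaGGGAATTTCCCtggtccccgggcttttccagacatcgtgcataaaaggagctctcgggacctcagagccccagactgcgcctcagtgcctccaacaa
The Cxcl1 and Cxcl2 windows share the letters GGGAATTTCC, which start 71 bases before the Cxcl1 start and 97 bases before the Cxcl2 start and occur on either strand in 0.0852% of promoter windows. The Cxcl10 window held GGGAAATTCC from 159 bases and GGGGACTTCC from 104 bases before the start, the second overlapping a further match. The Ppbp window held no match to the NF-kappaB consensus, and held TATAAA at 30 and at 8 bases before the start (12.4% of windows hold it). TGTTCT, the most conserved letters of a glucocorticoid receptor element, is in 16.1% of windows and in none of these 4. Of the member windows not shown, that of Cxcl9 held 2 matches to TGTTCT and that of Cxcl14 held 1. The windows of Cxcl9, Cxcl12 and Cxcl14 held no match to the NF-kappaB consensus. These matches are descriptions of the letters and show no binding.

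Each level is a log2 processed signal from which the array's 75th percentile was taken off, and no level is compared between probes. That percentile lay at 883 to 1815 intensity units, and the scanner called 70.7 to 78.4% of probes well above background. Mutated start codons cannot be read by expression probes, so no probe checks the genotype labels. One array was unlike its group, the one labelled WT vehicle replicate 1. Across genes, which are not independent replicates, it correlated at 0.982 with the other WT vehicle arrays and at 0.986 to 0.988 with the WT Dex arrays, while all other pairs within a group correlated at 0.990 to 0.998. Fkbp5, a co-chaperone gene that glucocorticoids induce, lay at 0.46 to 0.96 in GR-C3 Dex and -2.38 to -2.23 in GR-C3 vehicle. It lay at 1.90 to 2.16 in WT Dex, while in WT vehicle it was 1.51 on replicate 1 but -2.64 and -2.74 on the others. That array was also alone on its slide and scan day, so the members' differences under vehicle are given with all 12 arrays and without it (11 arrays). Dex changes in WT cells and interactions are given from both fits or from 1 of them. No slide held both genotypes under the same treatment, and the slides link the groups thinly. With slide as a block, the Dex change rests on 1 WT Dex array on slide 2 and 1 GR-C3 vehicle array on slide 4. Genotype differences then rest on slide 3, which sets GR-C3 vehicle against WT Dex arrays, together with those Dex changes. All 9 fibroblast markers were well above background on all 12 arrays.

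Genotype separated the CXC chemokines in both directions. Under Dex, all 9 tested probes differed between GR-C3 and WT cells, 6 higher and 3 lower in GR-C3, where limma called 27.6% of all probes (Benjamini-Hochberg adjusted p under 0.05), 16.2% higher and 11.4% lower. Under vehicle 8 of 9 differed, 5 higher and 3 lower, against 23.3% of all probes, 13.0% higher and 10.3% lower. With 11 arrays the counts were again 9 and 8, against 38.4% and 26.8% of all probes. The median difference of the 9 probes was 0.84 under Dex and 1.09 under vehicle (0.53 with 11 arrays), and the median of all probes was 0.11 and 0.08. On this scale the higher genes were Ppbp, Cxcl5, Cxcl1, Cxcl14, Cxcl10 (under Dex) and Cxcl12 by its variant 2 probe, and the lower ones were Cxcl16 by both probes and Cxcl12 by its variant 1 probe, while Cxcl1 and Cxcl10 turned under Dex with the normexp correction described below.

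**Figure D1:**
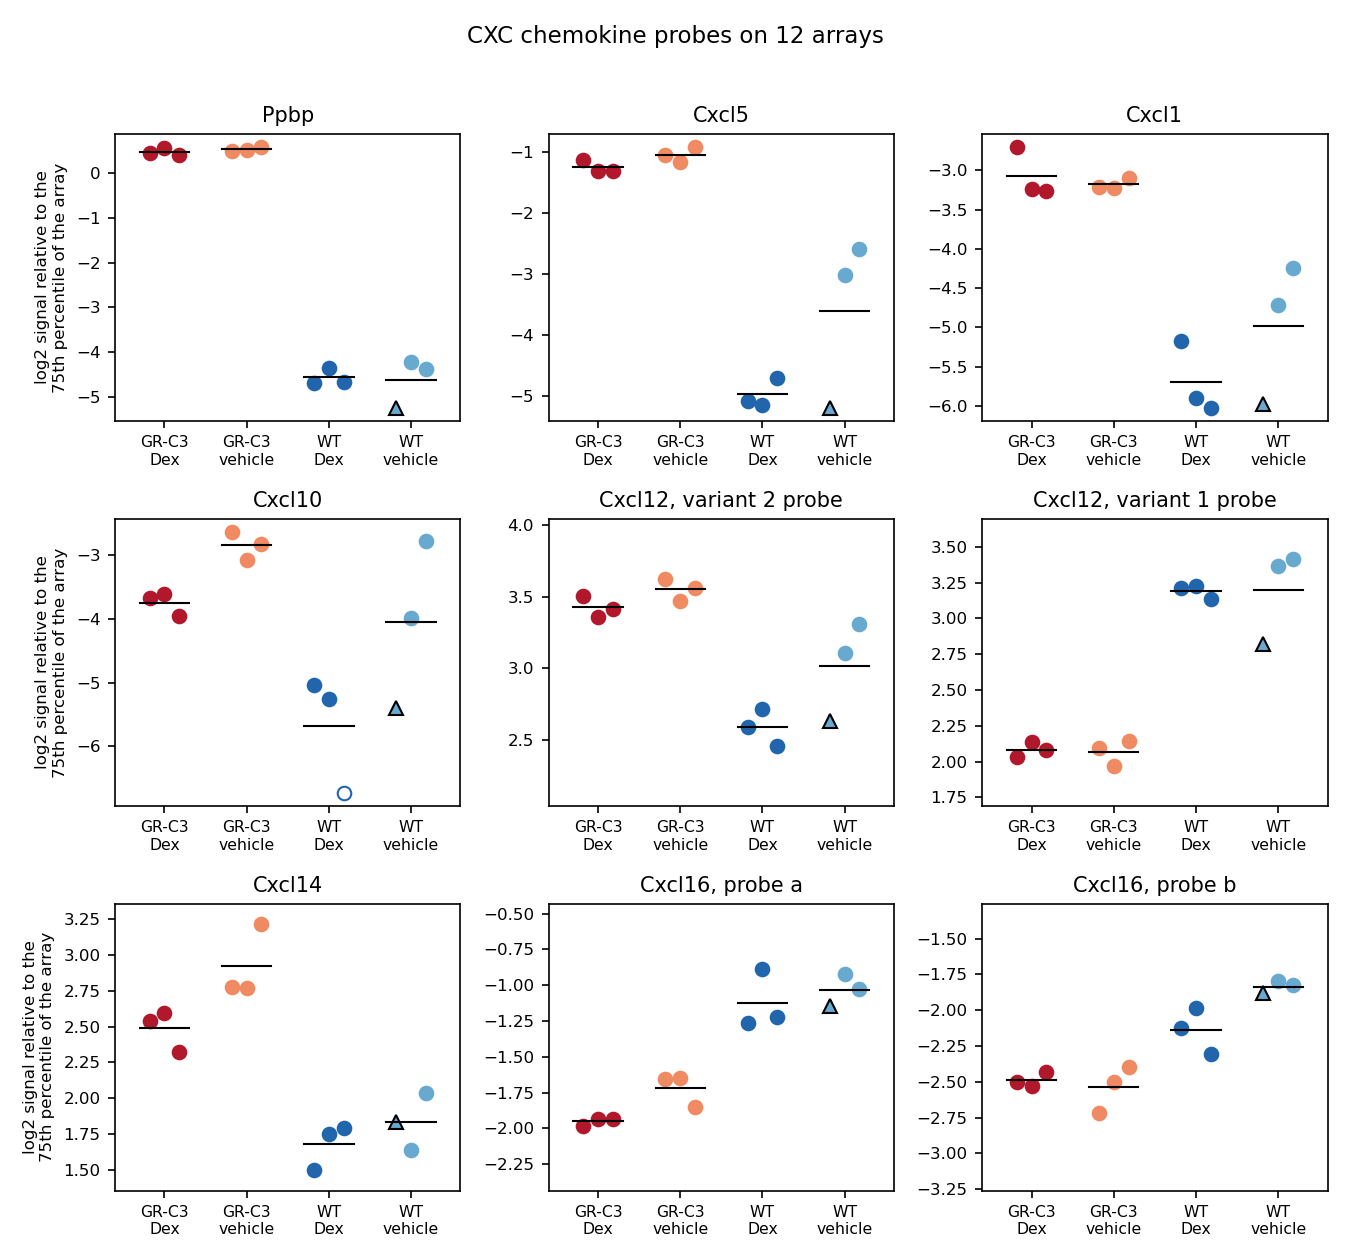
Level of each tested CXC chemokine probe on each array, as log2 processed signal relative to the array's 75th percentile (vertical axis, with its own range in each panel), by group (horizontal axis: GR-C3 Dex, GR-C3 vehicle, WT Dex, WT vehicle). Points are arrays, bars are group means of 3 arrays, the black-edged triangle is WT vehicle replicate 1 and the open point (Cxcl10, WT Dex replicate 3) was not well above background. On this scale GR-C3 arrays sit above all WT arrays for Ppbp, Cxcl5, Cxcl1, Cxcl14 and the variant 2 probe of Cxcl12, and below them for Cxcl16 probe a and b and the variant 1 probe of Cxcl12.

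Ppbp, whose product is cut to a neutrophil attractant stored in platelets, showed the largest difference of the family. Its probe lies at chr5:90741218-90741277 in build mm7. It was at 0.44, 0.57 and 0.41 in GR-C3 Dex and at 0.50, 0.52 and 0.58 in GR-C3 vehicle, against -4.68, -4.34 and -4.66 in WT Dex and -5.24, -4.22 and -4.37 in WT vehicle. The genotypes were far apart on every array, and the treatments overlapped within each genotype. Ppbp was 32.8-fold higher in GR-C3 than in WT under Dex (log2 difference 5.04 ± 0.22, SE; limma adjusted p = 2.16e-07), the 6th highest of the 30934 probes. Under vehicle it was 35.4-fold higher (5.15 ± 0.22, adjusted p = 2e-07), the 5th highest, and 28.4-fold higher with 11 arrays (4.83 ± 0.12). With array slide as a block the differences were 4.91 under Dex and 4.62 under vehicle (adjusted p = 0.000163). With normexp on the local backgrounds as scanned, which reached 65361 on a WT Dex array, the difference was 2.04 under Dex (adjusted p = 0.148) and 4.11 under vehicle, and with the flagged local backgrounds repaired it was 3.80 and 4.09, both called.

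Cxcl5, a neutrophil attractant of stromal and epithelial cells, has its probe at chr5:90732453-90732512 in mm7. Its level was -1.14, -1.31 and -1.31 in GR-C3 Dex and -1.05, -1.17 and -0.92 in GR-C3 vehicle. In WT Dex it was -5.08, -5.14 and -4.70, and in WT vehicle -5.19, -3.02 and -2.60. All GR-C3 arrays lay above all WT arrays, and the array labelled WT vehicle replicate 1 lay with the WT Dex arrays. Cxcl5 was 13.2-fold higher in GR-C3 than in WT under Dex (3.72 ± 0.50, adjusted p = 0.000384) and 5.87-fold higher under vehicle (2.55 ± 0.50, adjusted p = 0.0043). The vehicle difference was 3.39-fold with 11 arrays (1.76 ± 0.17). With slide as a block it was 1.54 under vehicle (adjusted p = 0.0241) and 3.48 under Dex. Normexp as scanned ended both calls, at 0.87 under Dex (adjusted p = 0.402) and 2.04 under vehicle (adjusted p = 0.332), and on repaired local backgrounds both were called, at 2.49 and 2.00.

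Cxcl1, a neutrophil attractant released early in inflammation, has its probe at chr5:90882059-90882118 in mm7. Its level was -2.71, -3.24 and -3.26 in GR-C3 Dex and -3.22, -3.23 and -3.09 in GR-C3 vehicle, against -5.18, -5.90 and -6.02 in WT Dex and -5.97, -4.72 and -4.25 in WT vehicle. The genotypes did not overlap under either treatment. Cxcl1 was 6.18-fold higher in GR-C3 than in WT under Dex (2.63 ± 0.37, adjusted p = 0.000555) and 3.48-fold higher under vehicle (1.80 ± 0.37, adjusted p = 0.00596). With 11 arrays the vehicle difference was 2.47-fold (1.30 ± 0.26), and leaving out WT vehicle replicate 2 as well ended that call. With normexp as scanned the Cxcl1 difference under Dex turned to -0.28, or 0.25 relative to the shift of all probes by -0.53, and under vehicle it was 1.34 and lost its call (adjusted p = 0.687). On repaired local backgrounds it was 1.25 under Dex (adjusted p = 0.00038) and 1.08 under vehicle, smaller than the values above and called.

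Cxcl2, the closest relative of Cxcl1 and likewise a Cxcr2 ligand, was not well above background on any array. Its probe, at chr5:90894748-90894807 in mm7, read between -9.14 and -7.30, whereas the dimmest level called well above background was -6.95 to -6.01 on these arrays. No fold is given for it.

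**Figure D2:**
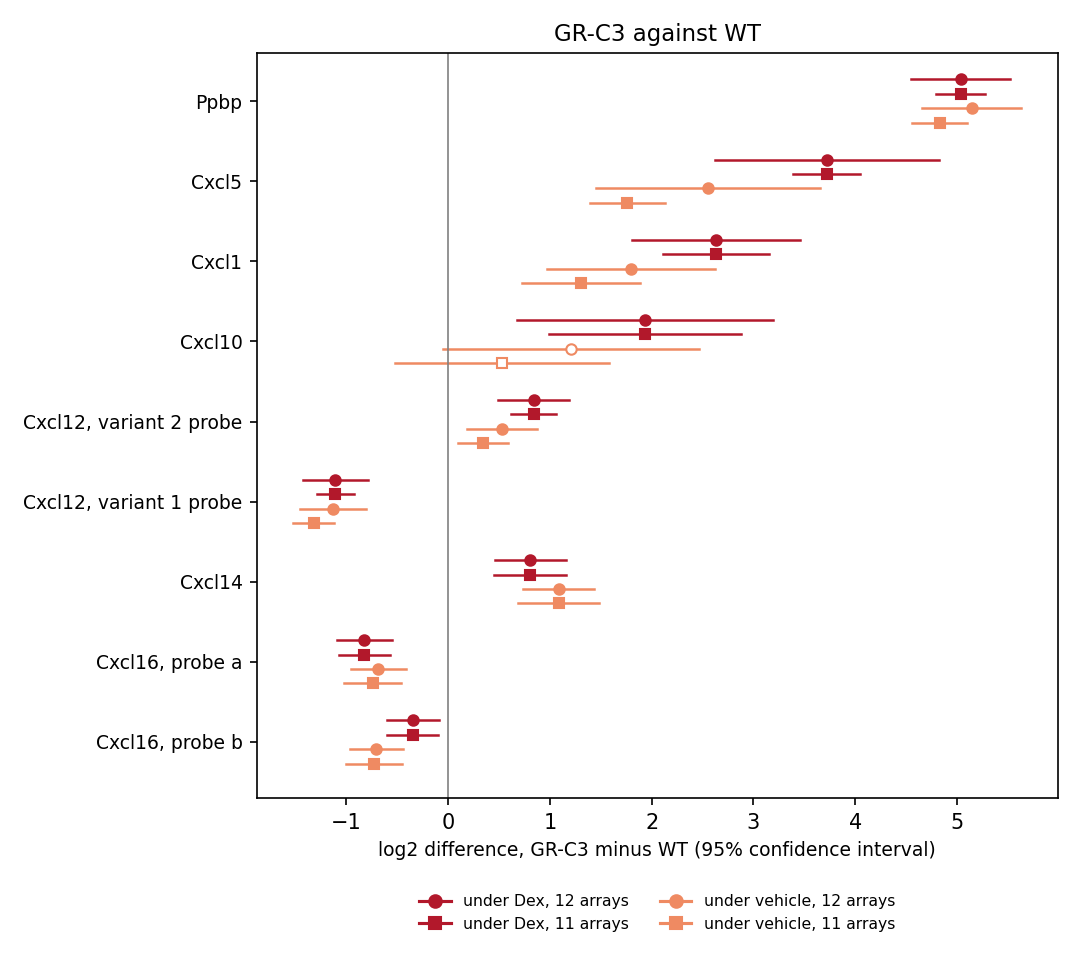
Log2 difference between GR-C3 and WT cells (horizontal axis) for each tested probe (vertical axis), under Dex and under vehicle, with 95% confidence intervals. Circles are fits of 12 arrays, squares of 11 arrays without WT vehicle replicate 1, and filled symbols have an adjusted p under 0.05. Ppbp lies near 5 under both treatments, Cxcl10 is open under vehicle, and Cxcl16 and the variant 1 probe of Cxcl12 lie below 0.

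The interferon-induced pair divided into a measured and an unmeasured gene. Cxcl10, which draws activated T cells, was at -3.67, -3.61 and -3.95 in GR-C3 Dex and -2.64, -3.08 and -2.82 in GR-C3 vehicle. In WT Dex it was at -5.04, -5.26 and -6.73, of which the last was not well above background, and in WT vehicle at -5.40, -3.98 and -2.78. The genotypes did not overlap under Dex and overlapped under vehicle. Cxcl10 (probe at chr5:92334002-92334061, mm7) was 3.82-fold higher in GR-C3 than in WT under Dex (1.93 ± 0.57, adjusted p = 0.0281). This call was lost without WT Dex replicate 3 and without each GR-C3 Dex array, with values of 1.41 to 2.25 over the 12 fits that each leave out 1 array. It was also lost with slide as a block (2.22, adjusted p = 0.105). Under normexp as scanned the difference turned to -0.72, or -0.18 relative to the shift of all probes, and on repaired local backgrounds it was 0.72 and not called (adjusted p = 0.111). Under vehicle the difference was 1.21 ± 0.57 (adjusted p = 0.155, 95% interval -0.05 to 2.46), and 0.53 ± 0.47 with 11 arrays, and it passed at 1.84 without WT vehicle replicate 3. Cxcl9, a second Cxcr3 ligand, with its probe at chr5:92310412-92310471 in mm7, read -8.95 to -6.88 and was not well above background on any array.

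Cxcl12, the ligand of Cxcr4, was read by probes for different transcript variants, and these moved in opposite directions. The variant 2 probe (chr6:117207552-117207611, mm7) was at 3.51, 3.36 and 3.42 in GR-C3 Dex and 3.62, 3.47 and 3.56 in GR-C3 vehicle, against 2.59, 2.71 and 2.46 in WT Dex and 2.63, 3.11 and 3.31 in WT vehicle. By this probe every GR-C3 array was above every WT array. The difference was 0.84 ± 0.16 under Dex (1.79-fold higher in GR-C3, adjusted p = 0.00288) and 0.53 ± 0.16 under vehicle (adjusted p = 0.0308). The vehicle value was 0.34 ± 0.11 with 11 arrays (adjusted p = 0.0447) and was lost without each GR-C3 vehicle array and with slide as a block (0.34, adjusted p = 0.368). The vehicle call was also lost with normexp as scanned (adjusted p = 0.753) and with quantile normalization (adjusted p = 0.0925). Without the filter on dim probes, and with only the arrays of the groups compared, it was lost too (adjusted p = 0.0528 and 0.098). The call of this probe under Dex was lost with normexp as scanned (1.08, adjusted p = 0.0865). The variant 1 probe (chr6:117200799-117200858, mm7) was at 2.03, 2.14 and 2.08 in GR-C3 Dex and 2.10, 1.97 and 2.14 in GR-C3 vehicle, against 3.21, 3.23 and 3.14 in WT Dex and 2.82, 3.37 and 3.41 in WT vehicle. By this probe every GR-C3 array was below every WT array. The difference was -1.11 ± 0.15 under Dex (2.16-fold lower in GR-C3, adjusted p = 0.000337) and -1.13 ± 0.15 under vehicle (2.19-fold lower, adjusted p = 0.00032). With 11 arrays the vehicle difference was -1.32 ± 0.09. With slide as a block the differences were -1.21 under Dex and -1.32 under vehicle (adjusted p = 0.00262 and 0.00309). Normexp as scanned ended both calls, at -0.72 under Dex (adjusted p = 0.192) and -1.18 under vehicle (adjusted p = 0.0829). On repaired local backgrounds both were called, at -1.12 and -1.13. A probe reads the signal of its own stretch, so these values describe unequal change within the gene and not its total output.

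Cxcl14, a chemokine made at rest that attracts myeloid cells, was at 2.54, 2.60 and 2.32 in GR-C3 Dex and 2.78, 2.77 and 3.22 in GR-C3 vehicle. It was at 1.50, 1.75 and 1.79 in WT Dex and 1.83, 1.64 and 2.03 in WT vehicle. The genotypes did not overlap. Cxcl14 (probe at chr13:55377968-55378027, mm7) was 1.75-fold higher in GR-C3 than in WT under Dex (0.81 ± 0.16, adjusted p = 0.00378) and 2.12-fold higher under vehicle (1.09 ± 0.16, adjusted p = 0.000704), where 11 arrays gave 1.08 ± 0.18. Both calls were lost with slide as a block, at 0.27 (adjusted p = 0.473) and 0.66 (adjusted p = 0.148).

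Cxcl16, the membrane-anchored ligand of Cxcr6, was lower in GR-C3 cells by both probes. Probe a, whose listed position spans chr11:70537593-70540334 in mm7, was at -1.98, -1.93 and -1.93 in GR-C3 Dex and -1.66, -1.65 and -1.85 in GR-C3 vehicle, against -1.27, -0.89 and -1.23 in WT Dex and -1.14, -0.92 and -1.03 in WT vehicle. Probe b (chr11:70535852-70535911) was at -2.50, -2.53 and -2.43 in GR-C3 Dex and -2.72, -2.50 and -2.40 in GR-C3 vehicle, against -2.12, -1.99 and -2.31 in WT Dex and -1.88, -1.80 and -1.82 in WT vehicle. Neither probe overlapped between genotypes. By probe a Cxcl16 was 1.77-fold lower in GR-C3 than in WT under Dex (-0.82 ± 0.12, adjusted p = 0.000728) and 1.61-fold lower under vehicle (-0.69 ± 0.12, adjusted p = 0.00246). By probe b the differences were -0.35 ± 0.12 (adjusted p = 0.0465) and -0.71 ± 0.12 (adjusted p = 0.00161). With 11 arrays the vehicle differences were -0.74 ± 0.13 by probe a and -0.73 ± 0.12 by probe b. The call of probe b under Dex was lost in 8 of the 12 fits that each leave out 1 array. With slide as a block its differences were larger, at -0.56 under Dex and -0.77 under vehicle, and not called (adjusted p = 0.106 and 0.0691). On repaired local backgrounds its call under Dex was lost (-0.32, adjusted p = 0.0936). That call was also lost without the filter on dim probes, with a replicate block and with only the arrays of the groups compared. Normexp as scanned ended the calls of both probes. The adjusted p was then 0.106 under Dex and 0.529 under vehicle by probe a, and 0.27 and 0.753 by probe b.

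Summed levels of markers of other cell types differed between the genotypes beside these results, and their part in them was not tested. Each sum leans on its brightest probes, and counts of called markers follow the sums. Of 8 leukocyte and macrophage markers 7 were well above background on all 12 arrays, and their summed linear level was 5.16 to 5.58 in GR-C3 Dex and 6.10 to 6.58 in GR-C3 vehicle, against 6.62 to 7.59 in WT Dex and 6.99 to 8.57 in WT vehicle. Of 6 epithelial markers 4 were, with sums of 1.81 to 1.94 and 2.29 to 2.61 in GR-C3 Dex and vehicle against 0.63 to 0.89 and 0.77 to 0.88 in WT Dex and vehicle, while the defining marker Cdh1 was well above background on no array. Of 5 endothelial markers 2 were, with sums of 2.03 to 2.22 in GR-C3 Dex and 1.67 to 1.92 in GR-C3 vehicle, against 0.56 to 0.69 in WT Dex and 0.51 to 0.73 in WT vehicle, and Cdh5 and Tie1 were well above background on none. Of 5 megakaryocyte and platelet markers, the cells best known for Ppbp, 1 was, and their sums were 0.113 to 0.118 in GR-C3 Dex and 0.110 to 0.137 in GR-C3 vehicle, against 0.080 to 0.105 in WT Dex and 0.065 to 0.082 in WT vehicle. These sums include the signal of Pf4, a chemokine gene near Cxcl5 that is described below. Of the 2 platelet markers tested, limma called 0 under Dex. Under vehicle it called 1, higher, with 12 arrays and 0 with 11. By limma with 12 arrays, 28.6% of all genes were called under Dex and 24.0% under vehicle. Lower in GR-C3 under each treatment were 2 of 7 tested leukocyte and macrophage markers and 2 of 9 fibroblast markers. Of 2 tested endothelial markers 1 was higher under each treatment. Of 4 tested epithelial markers 2 were higher under each treatment, and 1 was lower under Dex. In bulk RNA, fewer cells of a type and less RNA per cell cannot be told apart.

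Cxcl5, Ppbp and Cxcl1 lie near further chemokine genes. Between the Cxcl5 and Cxcl2 probes (chr5:90732453-90894807, mm7), a span chosen after the values were seen, lay 8 probes. The probes of Cxcl2 and Pf4 were not tested. The other 6 differed by 2.63 to 5.04 under Dex and 1.80 to 5.15 under vehicle (1.30 to 4.83 with 11 arrays), values given as a description, since Cxcl3 and one Cxcl15 probe passed the filter through the GR-C3 arrays where they were high. The 6 were those of Cxcl5, Ppbp, Cxcl1 and the non-members Cxcl3 and Cxcl15, the last with a pair of probes. Cxcl3, a Cxcr2 ligand whose probe is 25.7 kb from that of Cxcl5, differed by 2.88 ± 0.62 under Dex and 3.53 ± 0.62 under vehicle with 12 arrays and 3.15 ± 0.68 under vehicle with 11. It was well above background on 1 of 3 arrays in each WT group, so the fitted differences include signals near background. Cxcl15, a neutrophil attractant best known from mouse lung, differed by 2.82 ± 0.22 under Dex and 3.04 ± 0.22 under vehicle by the probe used for the gene, and was at least 6.19-fold higher under Dex by the other, which no WT Dex array had well above background. Pf4, the platelet factor gene 12.1 kb away, was not tested and was at least 2.24-fold higher in GR-C3 vehicle than in WT vehicle, with 2 of 3 GR-C3 vehicle arrays and no WT array well above background.

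In the rest of a wider window of the chromosome (chr5:89408347-92838979, mm7), 52 of 72 probes were tested. This part still holds the members Cxcl9 and Cxcl10 and the further chemokine gene Cxcl11. Of the 52, 16 were higher and 5 lower in GR-C3 under Dex (median 0.19, from -1.60 to 2.12), against 16.2% of all probes higher and 11.4% lower. Cxcl10 was among the 16. Under vehicle 12 were higher and 5 lower (median 0.15, from -1.30 to 1.87), against 13.0% and 10.3%. The highest under vehicle was Areg, an epidermal growth factor receptor ligand 397 kb from the Cxcl5 probe, at 1.87 ± 0.33. Areg was at least 2.41-fold higher under Dex, where no WT array had it well above background. The window is ordered by position only, and no test of clustering was made.

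**Figure D3:**
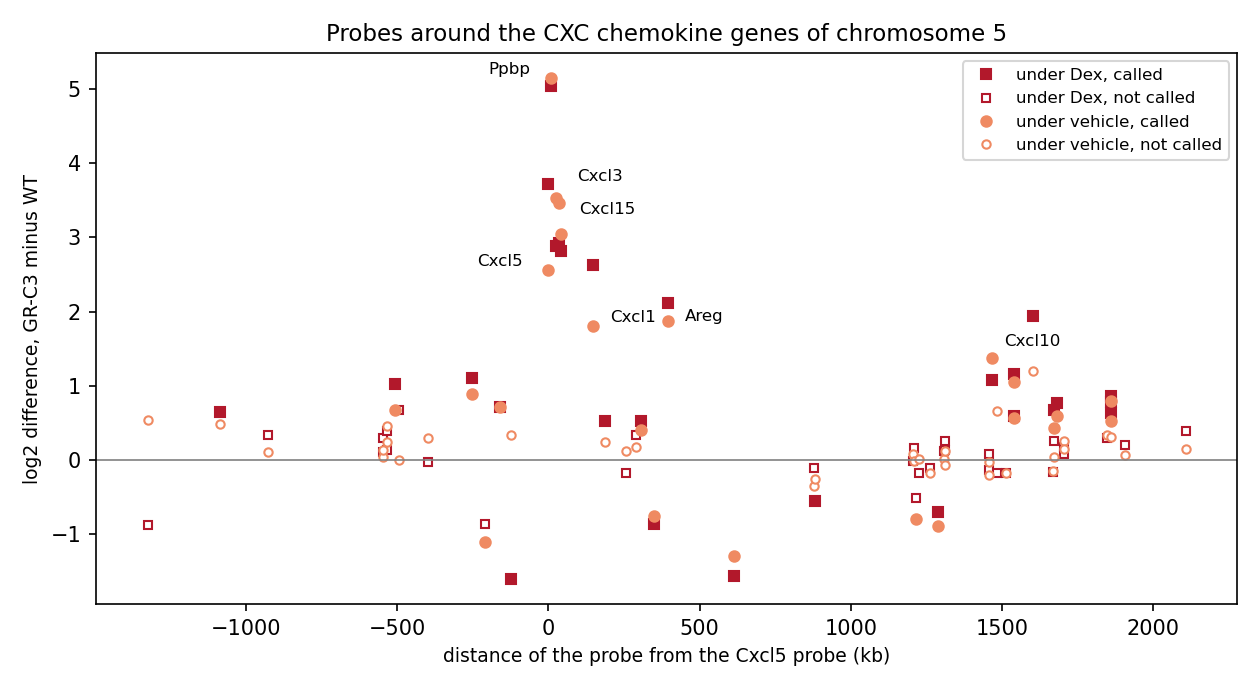
Log2 difference between GR-C3 and WT cells (vertical axis) for tested probes on chromosome 5, against the distance of each probe from the Cxcl5 probe in kb (horizontal axis). Squares are under Dex, circles under vehicle, both from 12 arrays, and filled symbols have an adjusted p under 0.05. The 6 tested probes between Cxcl5 and Cxcl2 lie at 1.80 or above, and the other probes of the window lie between -1.60 and 2.12.

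With all 12 arrays no member probe passed the test for a Dex change in either genotype. In GR-C3 cells limma called 0 of 9 probes with 12 arrays, where it called 0.11% of all probes, and 0 of 9 with 11 arrays, against 2.91%. At an unadjusted p under 0.05 there was 1 of 9 in each fit, against 3396 of 30934 probes with 12 arrays and 5239 of 30934 with 11. In WT cells it called 0 of 9 with 12 arrays, against 0.107% of all probes. At an unadjusted p under 0.05 there were 4 of 9, against 16.8% of all probes. With 11 arrays it called 4 of 9, each of them lower, against 11.3% of all probes in either direction and 6.28% lower. The median Dex change of the 9 probes was -0.12 in GR-C3 and -0.30 in WT cells (-0.33 in WT with 11 arrays), and that of all probes lay within 0.01 of 0. The interaction is the Dex change in GR-C3 minus that in WT cells. It was called for 0 of 9 members and 0 probes of the array with 12 arrays (1897 at an unadjusted p under 0.05), and for 1 of 9, higher, with 11 arrays, against 0.249% of all probes higher. The 11-array values leave out an array chosen from its own levels.

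For Cxcl5 the change with Dex was -0.20 ± 0.50 in GR-C3 cells (adjusted p = 0.913) and -1.37 ± 0.50 in WT cells (adjusted p = 0.22). With 11 arrays it was -0.20 ± 0.15 in GR-C3 cells (adjusted p = 0.504, 95% interval -0.53 to 0.12), and Cxcl5 was then 4.49-fold lower with Dex in WT cells (-2.17 ± 0.17, adjusted p = 3.25e-05). Without that array the WT groups did not overlap, whereas the GR-C3 groups did. The interaction was 1.17 ± 0.71 (adjusted p = 0.859) and, with 11 arrays, 1.96 ± 0.22 (adjusted p = 0.0046, 95% interval 1.47 to 2.45). With slide as a block, where a lone WT Dex array on slide 2 is compared with 2 WT vehicle arrays and is assumed to vary like the others, the WT change was -2.27 ± 0.23 (adjusted p = 0.00214) and the interaction 1.94 ± 0.31 (adjusted p = 0.099). Under normexp as scanned the WT change turned to 1.10 and the interaction to -1.17, where the median of all probes moved to 0.81 and -0.66.

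Cxcl1 changed by 0.11 ± 0.37 with Dex in GR-C3 cells (adjusted p = 0.943) and by -0.72 ± 0.37 in WT cells (adjusted p = 0.358). With 11 arrays its change in GR-C3 cells had a 95% interval of -0.41 to 0.63, and Cxcl1 was 2.32-fold lower with Dex in WT cells (-1.22 ± 0.26, adjusted p = 0.0152). The WT call was lost with slide as a block (-0.69 ± 0.27, adjusted p = 0.257) and when WT vehicle replicate 3 or WT Dex replicate 3 was left out as well. The interaction with 11 arrays was 1.33 ± 0.35 and did not pass (adjusted p = 0.127).

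Cxcl10 differed by -0.90 ± 0.57 with Dex in GR-C3 cells, where its groups did not overlap and the test was not passed (adjusted p = 0.593, and 0.318 with 11 arrays). When the WT arrays were kept out of the fit, this change was called (adjusted p = 0.0421). In WT cells the change was -1.62 ± 0.57 (adjusted p = 0.207), and with 11 arrays Cxcl10 was 4.92-fold lower with Dex (-2.30 ± 0.47, adjusted p = 0.0123), with 2 of 3 WT Dex arrays above background. That call was lost with slide as a block (-1.66 ± 0.63, adjusted p = 0.247) and without WT vehicle replicate 3. The interaction was 0.73 ± 0.81 (adjusted p = 0.923), and 1.40 ± 0.63 with 11 arrays (adjusted p = 0.354).

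The variant 2 probe of Cxcl12 changed by -0.12 with Dex in GR-C3 cells (adjusted p = 0.807) and by -0.43 ± 0.16 in WT cells (adjusted p = 0.219). With 11 arrays it was 1.54-fold lower in WT Dex (-0.62 ± 0.11, adjusted p = 0.00586), and this call was lost with slide as a block (adjusted p = 0.0797) and without WT vehicle replicate 3. The variant 1 probe changed by 0.01 in GR-C3 and -0.01 in WT cells. With 11 arrays its WT change was -0.20 and was not called. Cxcl14 and Cxcl16 probe a had groups that did not overlap in GR-C3 cells, at -0.43 ± 0.16 and -0.23 ± 0.12, and neither passed (adjusted p = 0.358 and 0.522). WT groups also separated without WT vehicle replicate 1, as for Cxcl5 and the variant 1 probe of Cxcl12. The share of all probes without overlap was not counted, so such separation is a description. Separation of 3 arrays from 3 has a permutation p of 0.1, so by itself it passes no test. Ppbp changed by -0.06 in GR-C3 cells and by 0.05 in WT cells (-0.26 ± 0.12 with 11 arrays, adjusted p = 0.186). Probe b of Cxcl16 changed by 0.05 in GR-C3 and -0.30 ± 0.12 in WT cells (adjusted p = 0.236). Cxcl14 and Cxcl16 probe a changed by -0.16 and -0.09 in WT cells (adjusted p = 0.653 and 0.736). With 11 arrays these WT changes were not called either.

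**Figure D4:**
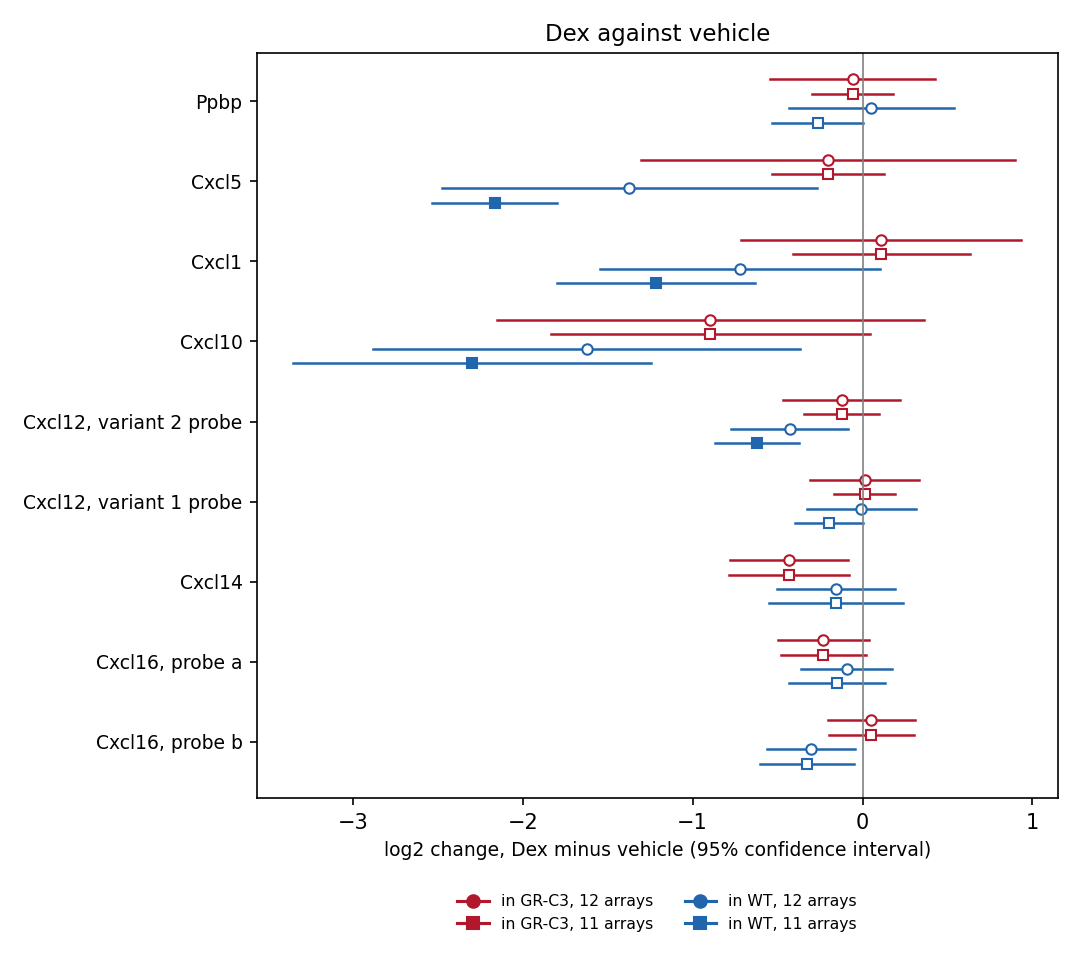
Log2 change with Dex (horizontal axis) for each tested probe (vertical axis) in GR-C3 and in WT cells, with 95% confidence intervals. Circles are fits of 12 arrays, squares of 11 arrays without WT vehicle replicate 1, and filled symbols have an adjusted p under 0.05. The only filled symbols are the 11-array values of Cxcl5, Cxcl1, Cxcl10 and the variant 2 probe of Cxcl12 in WT cells.

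The genes that receive, drive or modify CXC chemokines were read from lists, by 1 probe per gene. Of 9 CXC and atypical receptors 6 were tested, and Cxcr2, the receptor of the neutrophil attractants, was not among them, nor were Cxcr1 and Cxcr5. Under Dex 2 receptors were higher and 1 lower in GR-C3 than in WT, against 28.6% of all genes called. Cxcr4, the Cxcl12 receptor, was higher by 0.71 ± 0.24 and Ackr1, a chemokine sink of venules and red cells, by 0.71 ± 0.20. Ackr3, the scavenger of Cxcl12, was lower (-0.495 ± 0.14), also under vehicle (-0.95 ± 0.14), where it was the 1 receptor called, against 24.0% of all genes. With Dex and without WT vehicle replicate 1, limma called 0 receptors in GR-C3 cells (Cxcr6 -0.61 ± 0.14, adjusted p = 0.0516), against 3.2% of all genes. At an unadjusted p under 0.05 there were 3 of 6, against 17.9% of all genes. In WT cells Cxcr6 (-1.47 ± 0.16) and Ackr3 (-0.47 ± 0.12) fell, against 11.7% of all genes. With all 12 arrays 0 receptors were called in either genotype, against 0.101% of all genes in GR-C3 and 0.12% in WT cells. At an unadjusted p under 0.05 there were then 3 of 6 in GR-C3 and 2 of 6 in WT cells, against 11.7% and 16.4% of all genes. Without WT vehicle replicate 1 the Cxcr6 interaction was 0.85 ± 0.21 and did not pass (adjusted p = 0.112).

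Of 25 inputs of chemokine transcription 24 were tested. Under Dex 5 were higher and 4 lower in GR-C3 than in WT, against 28.6% of all genes. Under vehicle 3 were higher and 2 lower, against 24.0% (3 and 3 with 11 arrays, against 26.9%). Tnfaip3, a deubiquitinase that restrains NF-kappaB, was higher by 0.47 ± 0.10 under Dex and 0.78 ± 0.10 under vehicle. Irf1, an interferon-regulated transcription factor, was higher under Dex (0.96 ± 0.22), and Nfkbiz, a nuclear NF-kappaB cofactor, under vehicle (1.07 ± 0.18, WT vehicle replicate 1 missing by its outlier call). The bacterial lipoprotein receptor Tlr2 was lower under Dex (-0.795 ± 0.18), as was Il1rap, the interleukin-1 co-receptor (-1.32 ± 0.32), and Tlr4 was lower under vehicle (-0.71 ± 0.17).

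With Dex, 0 of the 24 inputs were called by limma with 12 arrays in either genotype, where 0.101% of all genes were called in GR-C3 and 0.12% in WT cells. At an unadjusted p under 0.05 there were 6 of 24 in GR-C3 and 4 of 24 in WT cells, against the same 11.7% and 16.4% of all genes. Without WT vehicle replicate 1, 0 rose and 4 fell in GR-C3 cells, against 3.2% of all genes called, and 2 rose and 3 fell in WT cells, against 11.7%. Irf1 fell by 0.52 ± 0.08 in GR-C3 and by 1.31 ± 0.09 in WT cells, with an interaction of 0.79 ± 0.12 (adjusted p = 0.0183), the 1 input with a called interaction, against 1.02% of all genes. Nfkbia, the inhibitor that holds NF-kappaB in the cytoplasm, rose by 1.41 ± 0.16 in WT cells. Relb, an NF-kappaB subunit, fell by 0.51 ± 0.10 in GR-C3 and by 0.69 ± 0.11 in WT cells.

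All 12 proteins that act on chemokines or their mRNAs were tested, and under Dex 3 were higher and 2 lower in GR-C3 than in WT, where 28.6% of all genes were called. Under vehicle 2 were higher and 2 lower, where 24.0% were called (3 and 2 with 11 arrays, where 26.9% were). Mmp9, a protease that trims Cxcl5 and related chemokines, was higher by 1.67 ± 0.16 under Dex and 1.90 ± 0.16 under vehicle. Mmp2, which cuts Cxcl12, was lower under Dex (-0.92 ± 0.16). Dusp1, a phosphatase that ends p38 signalling, was lower under Dex (-1.07 ± 0.20) and under vehicle (-0.68 ± 0.20). With Dex, limma called 0 of the 12 with all arrays in either genotype, where it called 0.101% of all genes in GR-C3 and 0.12% in WT cells. At an unadjusted p under 0.05 there were 1 of 12 in GR-C3 and 4 of 12 in WT cells, against 11.7% and 16.4%. Without WT vehicle replicate 1, Zfp36, which destabilizes AU-rich mRNAs such as that of Cxcl1, rose by 0.57 ± 0.12 in GR-C3 and by 1.40 ± 0.13 in WT cells, with an interaction that did not pass (-0.83 ± 0.17, adjusted p = 0.0659). Tsc22d3, a glucocorticoid-induced leucine zipper gene, rose by 2.28 ± 0.14 in GR-C3 and by 2.76 ± 0.16 in WT cells, and Dusp1 rose in WT cells by 0.84 ± 0.11.

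Of 8 further chemokines of the CXC, CX3C and XC families 5 were tested. Cxcl3 and Cxcl15 were the 2 higher in GR-C3 under both treatments, and Cxcl17 was the 1 lower (-1.17 ± 0.26 under vehicle), with no GR-C3 Dex array well above background, where 28.6% of all genes were called under Dex and 24.0% under vehicle. Cxcl3 passed the filter through the GR-C3 arrays where it was high, and Cxcl17 through groups other than GR-C3 Dex. These counts are therefore a description. With 11 arrays the vehicle counts were 2 higher and 2 lower, against 26.9% of all genes. With Dex, limma called 0 of 5 with 12 arrays in either genotype, where it called 0.101% of all genes in GR-C3 and 0.12% in WT cells. At an unadjusted p under 0.05 there was 1 of 5 in each, against 11.7% of all genes in GR-C3 and 16.4% in WT cells. Without WT vehicle replicate 1, Cx3cl1, the membrane-bound ligand of Cx3cr1, fell by 0.64 ± 0.11 in GR-C3 and by 0.89 ± 0.12 in WT cells.

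The patterns of members over the arrays were set against 23402 named probes by Pearson's r, a description without a test in which a gap between the genotypes alone gives a high r. Ppbp was closest to Cfap299, Steap1 and Tfap2b (0.996 over 12 arrays). Cxcl5 was closest to Insc (0.989), Bach2 and Fosl1, and Cxcl1 to Larp7 (0.989), Lactb and Ddx20. The variant 2 probe of Cxcl12 was closest to Mex3a (0.988) and the variant 1 probe to Lrp11 (0.990), and Cxcl14 to Fam20a (0.982). Among the members, the pairs of Cxcl1, Cxcl5 and Ppbp had r of 0.92 to 0.97. The probes of Cxcl16 had an r of 0.86 with each other and those of Cxcl12 an r of -0.73.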

How the data were processed

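The authors' deposited scanner output gives linear spot intensity, made per the file headers with Agilent Feature Extraction 9.5.3.1 (the submitters' processing notes name 9.5). The processed signal is background-subtracted by the authors and not scaled between arrays, and the deposited value table equals it for all 45018 spots within 1e-09. Probe positions are mm7 per the file headers, with no exon annotation of mm7 used here. All per-sample columns were mapped to a sample.

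Control spots (1639) and outlier-flagged spots were left out, and spots of a probe averaged. The log2 of the deposited signal minus the array's 75th percentile was fitted with limma 3.58.1 in R 4.3.3, with 1 coefficient per group over 12 arrays and eBayes, adjusting over 30934 probes by Benjamini-Hochberg. Kept probes had every array of 1 group or more well above background (10240 did not). Values after ± are SE. A probe not well above background in a whole group gets a bound ("at least") that sets the brighter mean against the higher, per array, of its own signal and the dimmest one well above background. Where a gene had several probes, lists used the brightest kept one. Every member probe was named, while of the lists not every called gene was named. A permutation of 3 arrays against 3 cannot go below p = 0.1. The fit was tested on simulated data. The members and lists were chosen with earlier results of these data known. The number of arrays limits the precision. Alternatives were normexp (offset 50), quantile normalization, other filters, slide and replicate blocks, and leaving out arrays. Repeating settings with 11 arrays and leaving out a further array were chosen after seeing the data.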

Additional observations from a re-analysis of the deposited data

Results flagged for a closer look

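The Dex change of Cxcl5 differed between the genotypes in the fit without the array labelled WT vehicle replicate 1, by an interaction of 1.96 ± 0.22 (SE, limma adjusted p = 0.0046). With all 12 arrays the interaction was 1.17 ± 0.71 (adjusted p = 0.859), and with slide as a block, where it rests on 1 WT Dex and 1 GR-C3 vehicle array, 1.94 ± 0.31 (adjusted p = 0.099). Leaving out any further array besides that one kept the call in 11 of 11 fits. The interaction depended on the background treatment. With all 12 arrays it was 0.50 on repaired local backgrounds (adjusted p = 0.963) and -1.17 with normexp as scanned (adjusted p = 0.42).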

How the results depend on the processing

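Of 9 member probes, Dex in GR-C3 called 0 with 12 arrays, 1 with the WT arrays kept out of the fit and 0 leaving out each array in turn. Dex in WT called 0, 1 with slide as a block, 1 within slide 2 and 0 to 4 leaving out each array. The interaction called 0, and 0 to 1 leaving out each array. Genotype under Dex called 9, 1 with normexp and 7 to 9 leaving out each array, and genotype under vehicle 8, 2 with normexp, 5 with slide as a block and 7 to 9. With slide as a block, genotype under Dex lost the calls of Cxcl10, Cxcl14 and Cxcl16 probe b. Over both treatments 11 of 18 genotype tests were then called. The cause of these changes was not tested. Over all probes, Dex in GR-C3 called 34, 420 with slide as a block, 137 with quantile normalization and 768 with the WT arrays kept out, Dex in WT 33, 1253 with slide as a block and 50 on repaired local backgrounds, genotype under Dex 8530, 361 with normexp and 4401 with slide as a block, and genotype under vehicle 7215, 365 with normexp and 2070 with slide as a block. Normexp moved the median change of all probes to 0.81, -0.66 and -0.53 for Dex in WT, the interaction and genotype under Dex, with local backgrounds of up to 26732 and 65361 on WT Dex replicates 2 and 3. Values that turned under it were, for Dex in WT, Cxcl10 1.57, Cxcl1 1.95, Cxcl5 1.10 and Cxcl16 0.28 and 0.80. For the interaction they were Cxcl10 -1.76, Cxcl14 0.046, Cxcl1 -1.61, Cxcl5 -1.17 and Cxcl16 probe b -0.59, for genotype under Dex Cxcl10 -0.72 and Cxcl1 -0.28, and for Dex in GR-C3 the variant 1 probe of Cxcl12 -0.042. With repaired local backgrounds one value turned, the Cxcl10 interaction at -0.065. With quantile normalization the variant 1 probe of Cxcl12 turned to 0.025 in WT and Cxcl16 probe b to -0.018 in GR-C3. With slide as a block, and equally within slides, Ppbp turned to -0.39 in WT, the variant 1 probe of Cxcl12 to -0.058 and Cxcl16 probe b to -0.092 in GR-C3, and the interactions of Cxcl16 probe a and Ppbp to 0.19 and 0.28. Leaving out each array turned values near 0. These were Ppbp in WT (-0.26 to 0.25) and its interaction (-0.30 to 0.21), the variant 1 probe of Cxcl12 in WT (-0.20 to 0.098), in GR-C3 (-0.036 to 0.049) and its interaction (-0.085 to 0.21), and Cxcl1 (-0.072 to 0.21) and Cxcl16 probe b (-0.038 to 0.12) in GR-C3. The replicate numbers did not pair the arrays (same-number correlations of -0.23 to 0.20 among deviations from group means), and with a replicate block the counts were 0, 0 and 0 for Dex in GR-C3, Dex in WT and the interaction, 8 for genotype under Dex and 8 under vehicle. With 11 arrays, the Cxcl5 change with Dex in WT was -1.17 on repaired local backgrounds (adjusted p = 0.000192) and 0.58 with normexp as scanned (adjusted p = 0.526).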
